A study of Mus musculus with 8 samples.

Results

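The nuclear genes for subunits of the mitochondrial respiratory chain and the ATP synthase were followed across the cell types and dissociation conditions of a mouse tumour. A gene was taken when its symbol in the filtered expression table began with Ndufa, Ndufb, Ndufc, Ndufs, Ndufv, Sdh, Uqcr, Cox4 to Cox8 or Atp5. Assembly factors named Ndufaf or Sdhaf and pseudogenes were left out. This gave 72 genes of the 6933 in that table, with 35 in complex I, 4 in complex II, 8 in complex III, 12 in complex IV and 13 in complex V. The choice used symbols alone, but only genes kept in the filtered table could enter. Among subunit genes with UMIs in annotated cells that were not in it under such a symbol were Atp5mpl (263 UMIs), Ndufs3 (24), Ndufs5 (3) and Atp5l (3). The rule by symbol also leaves Cyc1 out of complex III. The sums per complex below therefore do not cover every subunit. Complexes were assigned by symbol, so Ndufa4, now known as a subunit of complex IV, was counted in complex I.

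The respiratory chain sits in the inner mitochondrial membrane. Complex I takes electrons from NADH and complex II takes them from succinate, both pass them to ubiquinone, complex III hands them to cytochrome c, and complex IV gives them to oxygen. Complexes I, III and IV pump protons across the membrane, and complex V, the ATP synthase, lets protons back in to make ATP. Most subunits are encoded in the nucleus and imported, while a few core subunits of complexes I, III, IV and V are made from mitochondrial DNA, so the chain is built from both genomes.

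The tissue was a subcutaneous tumour of 4T1, a mammary carcinoma line, grown in Balb/c mice for 10 days after injection of 1000000 cells. A pool of 6 tumour pieces from different mice was digested for 1 h with a Bacillus licheniformis protease in each of 4 conditions, at 37C or 4C, without or with 2 nM actinomycin D, a blocker of transcription, called the inhibitor here. The heated tubes ran on a different instrument from the cold ones, so instrument and temperature cannot be told apart. All conditions went through the same lysis of red cells and the same clearing of debris and dying cells. Each condition gave 1 suspension, divided into the libraries A and B. Every p-value below therefore reflects the scatter of 2 aliquots from a single suspension and not that of separate mice.

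The authors annotated 654 cells, 325 as tumour cells, 154 as T cells, 109 as macrophages and 66 as NK cells. Annotated cells held 158314 to 199929 unique molecular identifiers (UMIs, counted molecules) in each 37C library and 23212 to 65149 in each 4C library, so values at 4C rest on fewer counts. The markers of tumour cells and macrophages were well separated. Summed markers of tumour epithelium reached 1612 UMIs per 1000000 (CPM) in tumour cells and 49.5 or less elsewhere (with Epcam at 0 in tumour cells). In macrophages 7 of 7 macrophage markers were detected at a summed 19907 CPM. Those 7 markers summed to 161 CPM in tumour cells (7 of 7 also detected), 173 CPM in T cells and 251 CPM in NK cells. T and NK cells were less distinct, with T cell markers at 7468 CPM in T cells and 2395 CPM in NK cells, and NK markers at 13463 CPM in NK cells and 1319 CPM in T cells. The macrophage label also held 462 UMIs of 3 mast cell markers. Among annotated cells, 1 barcode occurred in more than 1 library, and 318 of 23660 distinct listed barcodes did so.

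Some promoters of these genes are shown first, since they carry sequence features that the choice of genes did not use. RefSeq promoter windows on GRCm38.p6, from 250 bases before to 50 bases after the start, were matched for 60 of the 72 genes. They were searched on both strands for CGCATGCG (the palindromic core bound by NRF1), CCGGAAG (an ETS-type site, the class bound by GABP) and AAGATGGCG (a YY1-type site). The first was in 7 of the 60 genes, or 11.7%, against 2.07% of all 27025 genes in the table. The second was in 14 genes, 23.3% against 9.93%, and the third in 7 genes, 11.7% against 1.64%. At least 1 of the 3 was in 23 genes, 38.3% against 12.8% of all genes. Those 27025 genes were not limited to genes detected here, so the shares are not set against genes of like expression. A match is a description of letters, not a shown binding site.

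The stretch below is from Atp5j, the gene with the largest temperature difference, and is part of the only RefSeq window that held all 3 motifs. Another RefSeq window of Atp5j, at chr16:84835576-84835875, held 0 of them. The stretch lies at chr16:84835024-84835123 on the minus strand, within the annotated span of Atp5j (84827866-84835625). It is outside the annotated UTRs of Atp5j and of Gabpa, which overlaps Atp5j on the other strand and encodes a GABP subunit. Capitals mark, in order, the NRF1-type, YY1-type and ETS-type letters.

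Atp5j: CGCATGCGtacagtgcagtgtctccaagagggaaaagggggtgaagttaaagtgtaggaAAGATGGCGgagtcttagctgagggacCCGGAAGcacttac

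In 6 of the 7 genes with a YY1-type match, the match was on the gene's own strand and after the start, against 206 of 443 genes (46.5%) with that match in the whole table. Its first base lay 23 to 36 bases into the transcript, counting the start as base 1. The 6 are shown with 30 bases each because their matches sit at nearly the same place; capitals mark the motif.

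Ndufc1, chr3:51408914-51408943, minus strand: cctgcggaacAAGATGGCGccgtccgtagt
Atp5j2, chr5:145191499-145191528, minus strand: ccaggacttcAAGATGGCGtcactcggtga
Ndufs7, chr10:80249463-80249492, plus strand: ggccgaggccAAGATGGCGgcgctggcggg
Ndufa9, chr6:126849096-126849125, minus strand: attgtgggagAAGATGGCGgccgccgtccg
Ndufs6, chr13:73328433-73328462, minus strand: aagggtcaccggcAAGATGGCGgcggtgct
Ndufs4, chr13:114388045-114388074, minus strand: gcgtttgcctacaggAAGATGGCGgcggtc

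The NRF1-type letters were in genes of complexes I, III, IV and V. Beside Atp5j, 3 of the 7 genes held an ETS-type match as well, the complex IV gene Cox6a1, the complex III gene Uqcr11 and the ATP synthase gene Atp5k. Those 3 are shown with Ndufa11, a complex I gene that held the NRF1-type letters alone. Capitals mark the NRF1-type letters.

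Cox6a1, chr5:115349101-115349130, minus strand: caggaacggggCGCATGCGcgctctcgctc
Uqcr11, chr10:80406808-80406837, minus strand: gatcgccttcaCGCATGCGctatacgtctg
Atp5k, chr5:108434430-108434459, minus strand: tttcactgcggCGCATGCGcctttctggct
Ndufa11, chr17:56717692-56717721, plus strand: cctgcactgcgCGCATGCGcgcacgccttg

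A gene of this group often lay head to head with another gene. Within 1000 bases, 22 of the 72 genes (30.6%) had the start of a protein-coding gene on the opposite strand, against 11.9% of 3280 protein-coding genes tested. The starts of Ndufb9 and Tatdn1 were 18 bases apart, and Tatdn1 had 14 UMIs in all annotated cells against 972 for Ndufb9. Another annotated gene overlapped 34 of the 72, and for 10 genes over 10% of the 50-base words in the last 300 transcript bases also occurred in transcripts of other genes. Cox7c (73.3%), Uqcrb (40.6%), Atp5h and Cox6c (38.2% each) shared the most, so their counts are uncertain, since how such reads and strand were handled is not stated in the labels or file headers.

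Tumour cells gave the largest share of their UMIs to these genes. All 72 together took 2.69% of UMIs in tumour cells (95% exact interval 2.65 to 2.74), 2.20% in macrophages (2.12 to 2.27), 2.07% in T cells (1.99 to 2.15) and 2.00% in NK cells (1.88 to 2.12). The intervals cover counting error only. No test is given between cell types, because the types came from the expression of the same cells. Within each of the 4 conditions the pooled share was also highest in tumour cells, from 2.41% at 4C with inhibitor to 2.87% at 37C with inhibitor. Barcodes left unannotated with at most 50 UMIs, which mostly sample free RNA, gave 1.15 to 1.86% per library.

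Over libraries with at least 10 cells of a type, the share in tumour cells ran from 2.23 to 2.91% with a median of 2.58% (8 libraries). In T cells it ran from 1.82 to 2.34% with a median of 2.16% (8 libraries), and in macrophages from 1.98 to 2.36% (4 libraries). Tumour cells were above T cells in 7 of 8 libraries. The exception was library A at 4C with inhibitor, where 14 tumour cells gave 2.226% and 16 T cells gave 2.228%. The order among macrophages, T cells and NK cells did not hold beyond the spread between libraries.

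Pooled over the 4 conditions, the share was highest in tumour cells for each of the 5 complexes. For complex I the 35 genes took 0.952% of UMIs in tumour cells, 0.748% in macrophages, 0.645% in T cells and 0.635% in NK cells, and tumour cells were above T cells in 8 of 8 libraries. Ndufb9 alone held 886 of the 5546 tumour cell UMIs of complex I. Without it, a view added after the values were seen, complex I took 0.800% in tumour cells (95% exact interval 0.777 to 0.823), 0.713% in macrophages, 0.625% in T cells and 0.618% in NK cells, with 6 of 8 libraries above T cells. Complex III took 0.299% in tumour cells and 0.189 to 0.225% in the other types, again 8 of 8 libraries above T cells. Complex IV took 0.698% against 0.522 to 0.576%, with 6 of 8 libraries above T cells. Complex V took 0.654% in tumour cells and 0.577 to 0.590% in the others, and 7 of 8 libraries were above T cells. Complex II, with 4 genes, took 0.0907% in tumour cells and 0.0599 to 0.0734% elsewhere, and its intervals overlapped. The tumour cell interval of complex V, 0.633 to 0.675%, also overlapped those of T cells (0.548 to 0.635%) and NK cells (0.525 to 0.659%). In the heated conditions each complex was highest in tumour cells, but in both 4C conditions only complex III was. At 4C without inhibitor tumour cells were lowest for complex II (0.0596% against 0.0695 to 0.111%). NK cells there exceeded tumour cells for complexes IV (0.661% against 0.653%) and V (0.661% against 0.606%). At 4C with inhibitor, macrophages exceeded them for complex I (0.817% against 0.761%). T cells did so for complexes II and IV. These intervals overlapped.

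**Figure D1:**
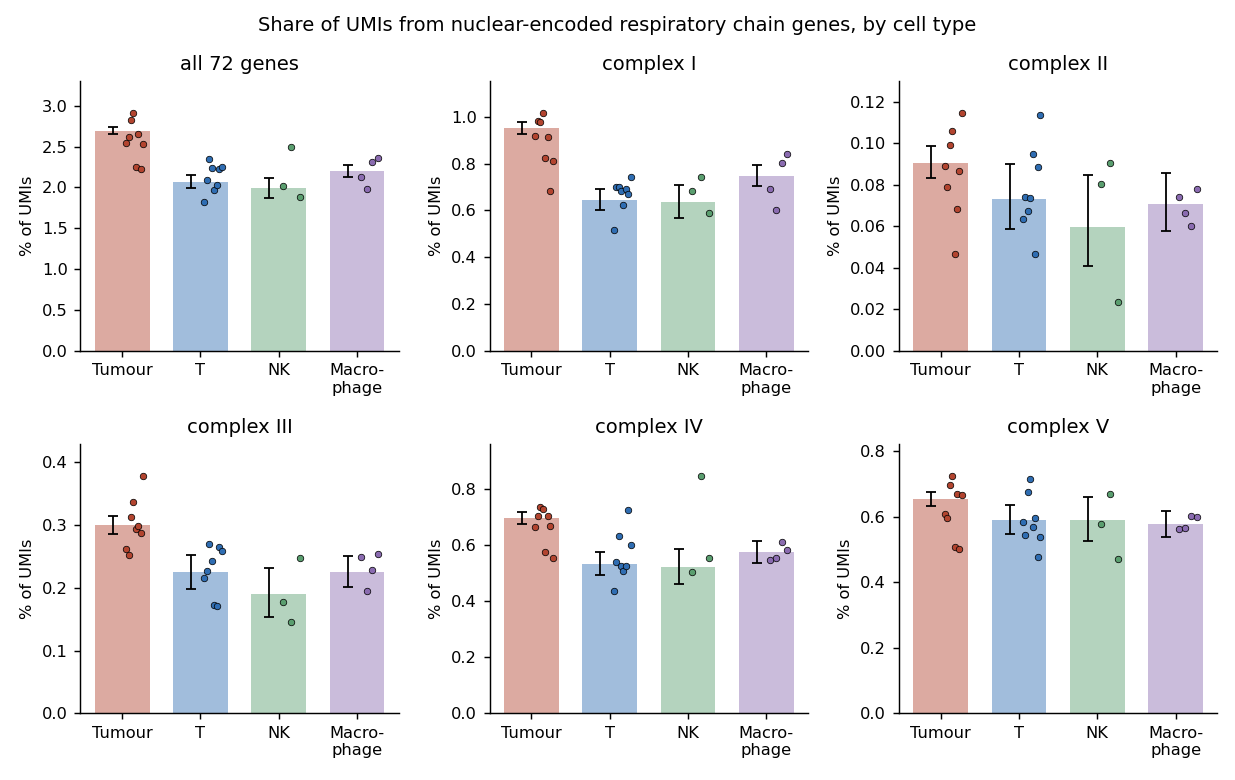
Share of UMIs (percent, vertical axis from 0) taken by all 72 genes and by each complex in the 4 annotated cell types. Bars are pooled over all cells of a type with 95% exact intervals, and points are libraries with at least 10 cells of that type; the tumour bar is the tallest in every panel.

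The genes did not share 1 ratio. Of 70 genes with at least 50 UMIs, 54 (77.1%) were higher in tumour cells than in the mean of the other types, against 56.9% of all 3668 genes with that many UMIs. Their median log2 ratio was 0.26 (all genes 0.17), on log2(CPM + 10), with CPM pooled over the cells of a type. Of all 72, 37 had a tumour level above each of the 3 other types and 5 had one below each. The like shares over all genes were not counted, so these counts are not read as particular to the group. The median was 0.34 for complex III, 0.33 for complex I, 0.31 for complex II, 0.20 for complex IV and 0.17 for complex V.

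Ndufb9, an accessory subunit in the membrane arm of complex I, stood farthest out. It had 886 UMIs in tumour cells, or 1521 CPM (1423 to 1625), against 350 CPM in macrophages, 206 in T cells and 174 in NK cells, a 6.25-fold difference from their mean. Its tumour cell level was 735 to 1733 CPM over the 8 libraries and its T cell level 0 to 691 CPM, with tumour cells higher in all 8. The next genes of complex I were Ndufab1, the mitochondrial acyl carrier protein, at 232 CPM in tumour cells against 24.7 in T cells, 77.3 in NK cells and 108 in macrophages, and Ndufs1, the largest iron-sulphur subunit, at 130 against 38.6 to 49.5 CPM.

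Other abundant genes of complex I differed less than Ndufb9. Ndufa2, an accessory subunit, had 495 CPM in tumour cells and 386 to 566 CPM in the others. Ndufa13, also known as GRIM-19, had 460 CPM in tumour cells and 618 CPM in NK cells. Ndufb7 leaned to tumour cells, with 417 CPM against 290 to 396 CPM elsewhere and a log2 ratio of 0.30. Ndufa1 and Ndufb10, both small membrane-arm subunits, were lower in tumour cells, at 113 CPM against 148 to 212 and at 167 CPM against 206 to 251.

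In complex III, Uqcr10, a small accessory subunit, had 840 CPM in tumour cells against 263 to 396 CPM, and Uqcrc1, a core subunit, 366 against 116 to 263 CPM. Uqcrh, the hinge protein that meets cytochrome c, went the other way, at 402 CPM in tumour cells against 498 to 577 CPM. Uqcrq was nearly level with T cells, at 481 and 462 CPM.

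In complex IV, Cox6c stood apart, with 1229 CPM in tumour cells against 445 in T cells, 406 in NK cells and 498 in macrophages. Its tumour cell level was above that of T cells in 7 of 8 libraries. Cox4i1, the gene with the most UMIs of the group (1204), had 1441 CPM in tumour cells and 1080 to 1178 CPM in the others. Cox6a1 had 1054 CPM against 715 to 869 CPM, and Cox6b1 was level at 658 CPM against 579 to 801 CPM.

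In complex V, Atp5g3, which encodes the ring subunit c, had 1008 CPM in tumour cells against 522 to 775 CPM, and was above T cells in 8 of 8 libraries. Atp5b, the catalytic beta subunit, had 840 CPM against 566 to 753 CPM. Atp5e and Atp5d, subunits of the central stalk, were level, at 864 CPM against 862 to 1047 CPM and 668 CPM against 525 to 684 CPM. Atp5h, a peripheral stalk subunit, had the lowest ratio of the group, with 187 CPM in tumour cells against 379 in T cells, 367 in NK cells and 249 in macrophages. The 4 genes of complex II all leaned to tumour cells by log2 ratios of 0.24 to 0.75, led by Sdhc, a membrane anchor, at 254 against 96.6 to 195 CPM.

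**Figure D2:**
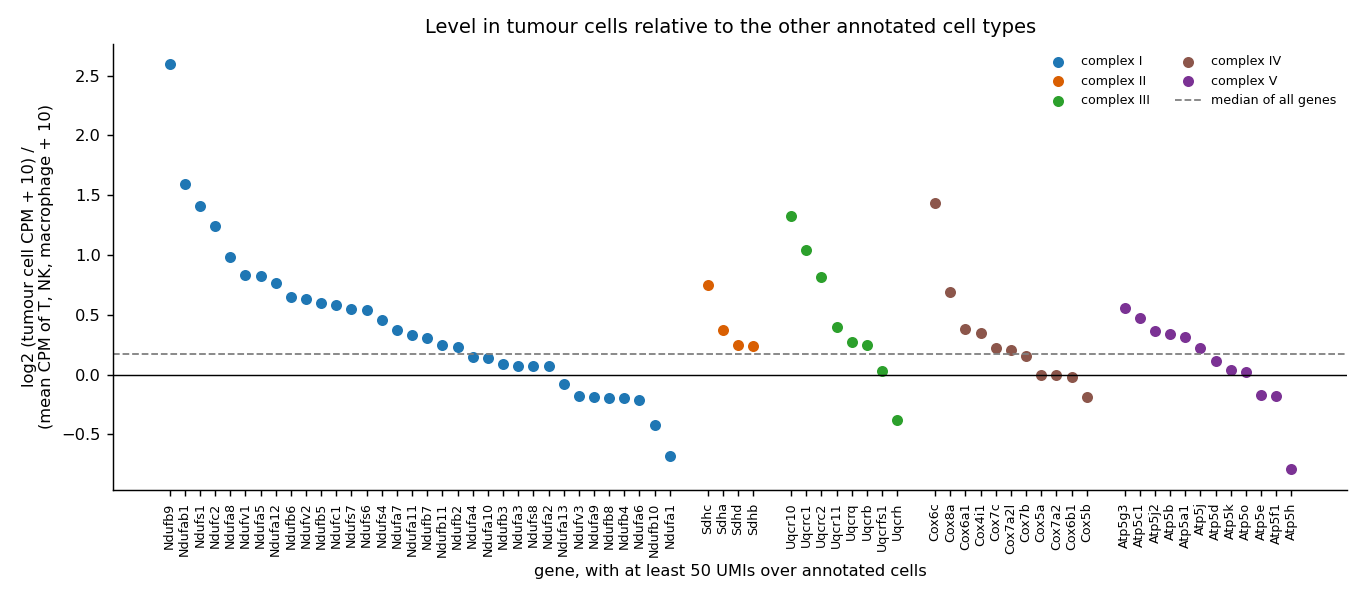
Log2 ratio of the level in tumour cells to the mean of T cells, NK cells and macrophages (CPM + 10) for the genes reported that had at least 50 UMIs, ordered within each complex. The dashed line is the median of all genes, 0.17; Ndufb9 lies highest at 2.60 and Atp5h lowest at -0.79.

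Both Ndufb9 and Cox6c lie on chromosome 15, at chr15:58933756-58939488 and chr15:35925886-35938246. On that chromosome 182 genes had a median log2 ratio of 0.52, the highest of the autosomes, against 0.17 over all genes. All 8 measured neighbours within 2 Mb of Ndufb9 leaned to tumour cells, with log2 ratios of 0.33 (Tmem65) to 2.04 (9130401M01Rik) and a median of 1.11, and 4 of the 8 were above 1. Around Cox6c, 5 of 6 neighbours were above 1, and the other, Ywhaz, was at -0.18. A ratio above 1 was found for 34.6% of the genes on chromosome 15 and 19.8% of all genes. On other chromosomes, 2 of 8 neighbours of Ndufab1 and 1 of 4 neighbours of Ndufs1 were above 1. The third gene of the group on chromosome 15, Ndufa6 at chr15:82350140-82354322, had a log2 ratio of -0.21, and 10 of its 14 neighbours were above 0 with a median of 0.12. What these neighbourhoods share was not tested.

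The subunits made from mitochondrial DNA that could be measured went the other way, on few counts. Only 6 such genes were in the tables, with 16 (mt-Nd5) to 220 UMIs (mt-Cytb) in annotated cells. Why their counts were so low was not tested, so their levels may not stand for mitochondrial RNA as a whole. Of the 6, 4 had at least 50 UMIs, and all 4 were lower in tumour cells, with a median log2 ratio of -0.94. The complex III gene mt-Cytb had 182 CPM in tumour cells against 404 in T cells, 348 in NK cells and 317 in macrophages. The complex I genes mt-Nd1 (168 CPM against 212 to 492 CPM), mt-Nd2 (56.7 against 90.7 to 148 CPM) and mt-Nd4 (149 against 276 to 406 CPM) were lower in the same way. By contrast, genes of the mitochondrial ribosome had a median ratio of 0.59 with 40 of 45 above 0, cytosolic ribosomal proteins 0.38, carriers and partners of the chain such as cytochrome c 0.36, proteasome genes 0.29, glycolysis genes 0.26 and citric acid cycle genes 0.17.

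Where a subunit has tissue forms, the widely expressed form held most UMIs. These are 3′ counts, so they do not grow with transcript length. Cox4i1 had 1204 UMIs and Cox4i2, the lung and hypoxia form, had 3. Cox6a1 had 882 and the muscle form Cox6a2 had 10, and Cox6b1 had 607 against 4 for the testis form Cox6b2. Cox7a2 and Cox7a2l had 285 each, while the muscle form Cox7a1 had 6. Cox7b had 258 UMIs and Cox7b2, a form known from testis, had 24. For subunit c, Atp5g3 had 819 UMIs, Atp5g1 48 and Atp5g2 5, and 41.4% of the end words of Atp5g2 occurred in other genes. Ndufa4 had 191 UMIs, Ndufa4l2 had 0 in annotated cells and Cox8a had 280. The forms named here with 3 to 6 UMIs, Cox7b2 and Ndufa4l2 were in the raw tables but not in the filtered table, so they are not among the 72.

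The totals of these genes overlapped between warm and cold dissociation. All 72 took 2.29% and 2.42% of annotated UMIs in libraries A and B at 37C without inhibitor, and 2.60% and 2.77% at 37C with inhibitor. At 4C they took 2.12% and 2.49% without inhibitor and 2.13% and 2.32% with it. The mean was 2.52% ± 0.211 for the 37C libraries (SD, n = 4) and 2.27% ± 0.173 for the 4C libraries (SD, n = 4), with overlap. The difference of 0.254 percentage points became 0.511 when all barcodes were summed and not the annotated cells alone. In such sums, fewer cells of a type and less RNA per cell cannot be told apart. For each complex the values at the 2 temperatures overlapped as well, with means of 0.877% and 0.751% for complex I, 0.0848% and 0.0772% for complex II, 0.270% and 0.265% for complex III, 0.652% and 0.609% for complex IV, and 0.637% and 0.563% for complex V.

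**Figure D3:**
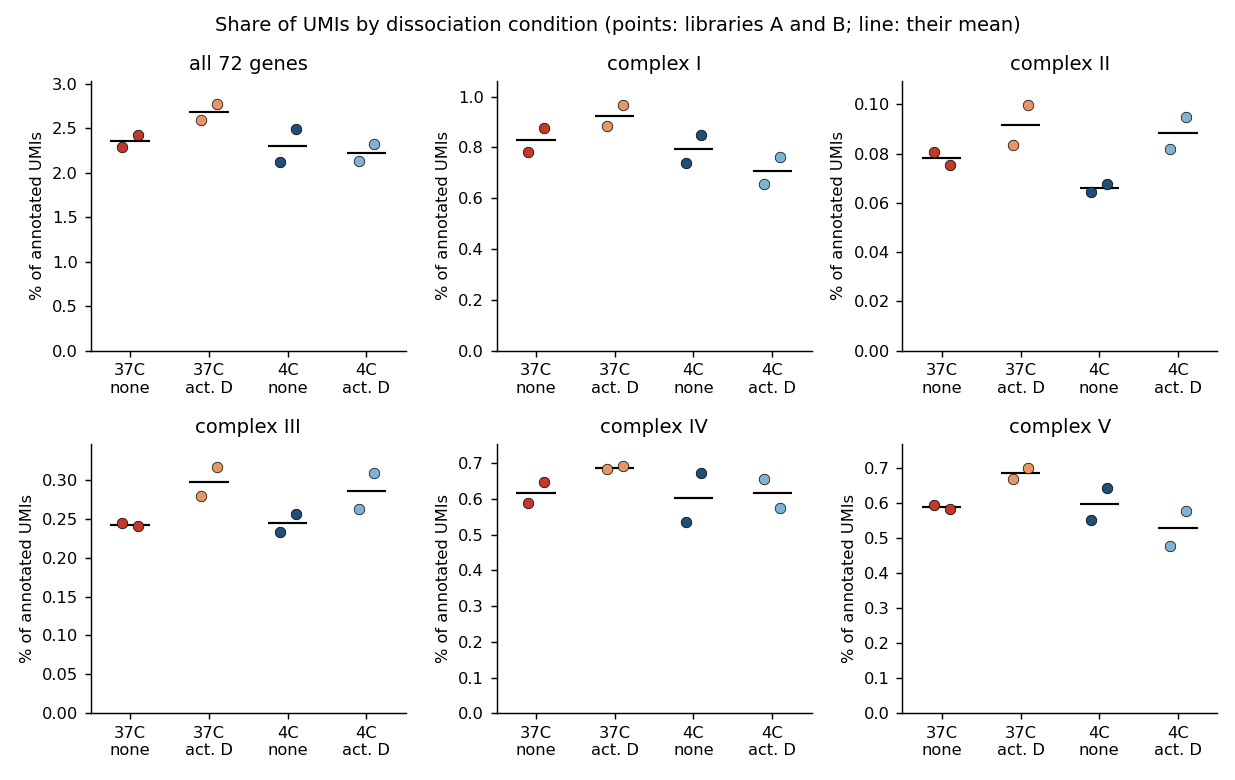
Share of annotated UMIs (percent, vertical axis from 0) by dissociation condition, for all 72 genes and for each complex. Points are libraries A and B and lines their mean; the values at 37C and 4C overlap in every panel, and those at 37C with inhibitor reach 2.60% and 2.77% for all genes.

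Gene by gene, 37C against 4C was tested with edgeR's quasi-likelihood test over all 3391 genes that passed the filter on low counts, 70 of the 72 among them. Atp5j and Ndufb9 were higher at 37C at a Benjamini-Hochberg adjusted p under 0.05, averaged over inhibitor, and no gene of the group was lower. That is 2 of 70, while 2.74% of all genes tested were called higher and 1.24% lower (3.98% either way), so the count is near the background. Neither call held in DESeq2's Wald test (0 of 70), nor in edgeR when A and B were summed to the 4 suspensions (0 of 71). With all barcodes in place of the annotated cells edgeR called 25 of 72 (34.7%), against 17.2% of 7515 genes. Before adjustment, 12 of 70 had p under 0.05, against 16.4% of the genes tested. The median log2 difference was 0.21 for the group and 0.04 for all genes. Above 0 were 53 of the 70 (75.7%), against 52.5% of all genes.

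Atp5j, which encodes coupling factor 6 in the peripheral stalk of the ATP synthase, had few counts. In A and B it had 18 and 39 UMIs (116 and 240 CPM) at 37C without inhibitor and 42 and 53 UMIs (222 and 280 CPM) at 37C with it. At 4C it had 6 and 6 UMIs (110 and 94.0 CPM) without inhibitor and 1 and 1 UMI (40.3 and 21.9 CPM) with it. All 4 libraries at 37C were above all 4 at 4C, by the smallest margin without inhibitor. The log2 difference was 1.93 ± 0.46 (SE), with an adjusted p of 0.0176 in edgeR's test. Without library B at 37C without inhibitor it was 1.61 (adjusted p 0.0788 in edgeR), and without library B at 4C with inhibitor 1.85 (adjusted p 0.120). Of its end words, 15.1% occurred in another gene.

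Ndufb9 was measured with more counts. It reached 912 and 1180 CPM at 37C without inhibitor and 1182 and 1461 CPM with it, against 804 and 877 CPM at 4C without inhibitor and 443 and 569 CPM with it. No 4C library reached the lowest 37C library. The log2 difference was 0.81 ± 0.21 (SE), with an adjusted p of 0.0278 in edgeR's test. It fell short of the threshold in edgeR without library B at 37C with inhibitor (0.73, adjusted p 0.0970), library B at 37C without inhibitor (0.71, adjusted p 0.130) or library A at 4C with inhibitor (0.82, adjusted p 0.0699). Ndufb9 was highest in tumour cells, and tumour epithelial markers summed to 979 to 1339 CPM in the 37C libraries and 493 to 1034 CPM in the 4C libraries. With the same makeup of cell types in every library, limma gave 0.51 for Ndufb9 (adjusted p 0.555) and 1.54 for Atp5j (adjusted p 0.240). That fit set no minimum of cells per type. Library A at 4C with inhibitor entered it with 1 macrophage and 3 NK cells, and library B at 37C with inhibitor with 2 NK cells. It therefore cannot tell the makeup of cell types from the noise of few cells. Macrophage markers were at 1568 to 7233 CPM and 451 to 1460 CPM, and T cell markers at 506 to 1712 CPM and 1347 to 2391 CPM, at 37C and 4C in turn; their part in the result was not tested further.

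**Figure D4:**
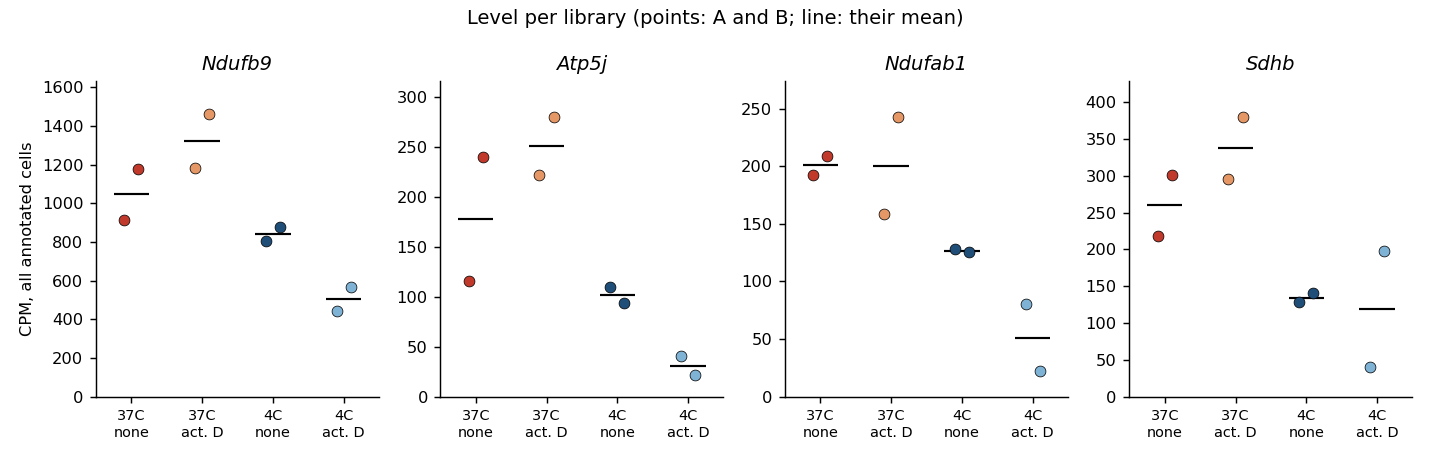
Level in annotated cells (CPM, vertical axis from 0) of Ndufb9, Atp5j, Ndufab1 and Sdhb in each library. Points are libraries A and B of a condition and lines their mean; for each of the 4 genes every library at 37C lies above every library at 4C.

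Other genes pointed the same way without passing the test. Ndufab1 had 158 to 243 CPM at 37C and 21.9 to 128 CPM at 4C, a log2 difference of 1.41 ± 0.41 (adjusted p 0.0544 in edgeR). Sdhb, the iron-sulphur subunit of succinate dehydrogenase, had 218 to 380 CPM and 40.3 to 197 CPM, a difference of 1.09 ± 0.33 (adjusted p 0.0680). Ndufv1, the subunit that binds NADH and FMN, had 116 to 135 CPM and 21.9 to 73.1 CPM, a difference of 1.51 ± 0.48 (adjusted p 0.0804).

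In all, 10 of the 70 genes (14.3%) had every library at 37C above every library at 4C, against 6.58% of all genes tested. They were Ndufb9, Ndufab1, Ndufv1, Ndufb6, Ndufb11, Ndufa11, Sdhb, Uqcrq, Cox7b and Atp5j. No gene of the 70 had every library at 4C above every library at 37C, against 3.1% of all genes.

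The 3 largest decreases were small and did not pass the test. Ndufb3, an accessory subunit of complex I, had 116 to 148 CPM at 37C and 128 to 263 CPM at 4C, a log2 difference of -0.58 ± 0.30 (adjusted p 0.348 in edgeR). Sdha, the flavoprotein of succinate dehydrogenase, had 135 to 174 CPM and 172 to 282 CPM, and the difference was -0.44 ± 0.29. Cox7a2l, which takes part in supercomplexes, differed by -0.37 ± 0.26. The subunits of complex II thus spread from -0.44 for Sdha to 1.09 for Sdhb, with Sdhc at 0.15 and Sdhd at -0.14.

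The most abundant genes of the group moved little. Cox4i1 had 1239 to 1483 CPM at 37C and 1041 to 1853 CPM at 4C, a log2 difference of -0.04 ± 0.20. Cox6a1 differed by 0.16, Cox6b1 by 0.20, Cox6c by 0.47, Uqcr10 by -0.12, Uqcrh by -0.20, Atp5e by -0.17, Atp5d by -0.20, Atp5b by 0.43 and Atp5g3 by 0.38. None of these passed the test. By complex, genes above 0 numbered 30 of 35 in complex I, 2 of 4 in complex II, 4 of 8 in complex III, 7 of 11 in complex IV and 10 of 12 in complex V. The share above 0 over all genes tested was 52.5%.

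Without inhibitor, temperature gave 0 called genes of 70 in edgeR and 0 in DESeq2's Wald test, with 1 at p under 0.05 before adjustment (10.0% of all genes). Of all genes 1.06% were called in edgeR (0.973% higher and 0.0885% lower), and the median was 0.03 in the group and -0.01 over all genes. With inhibitor, 2 of 70 were higher in edgeR, against 1.8% of all genes called (1.0% higher and 0.796% lower), and 16 had p under 0.05 before adjustment (13.7% of all genes). The 2 were again Ndufb9, by 1.33 ± 0.31 (adjusted p 0.0244), and Atp5j, by 3.07 ± 0.75 (adjusted p 0.0341), and the median was 0.40 against 0.07 over all genes. The Atp5j value rests on 1 UMI in each library at 4C.

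Both calls with inhibitor fell when either library at 4C with inhibitor, or library B at 37C with inhibitor, was left out. Ndufb9 then had log2 differences of 1.29, 1.78 and 1.17, and Atp5j of 3.53, 2.81 and 2.88, without A at 4C, B at 4C and B at 37C in turn. The difference between the 2 temperature effects, the interaction, passed for 0 of 70 genes and for 0.0% of all genes in edgeR, and for 0 in DESeq2. Before adjustment 6 of 70 had p under 0.05, against 7.37% of all genes, with Ndufb9 at 1.04 ± 0.42 and Atp5j at 2.28 ± 1.01 (adjusted p 0.561 and 0.623 in edgeR). A larger temperature effect with inhibitor than without was therefore not shown for either gene.

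Actinomycin D at 37C left these genes without a call. In edgeR 0 of 70 passed, 0 of 70 had an unadjusted p under 0.05, and DESeq2 called 0, while 1.21% of all genes were called (0.147% higher and 1.06% lower) and 8.43% were under 0.05 before adjustment. The log2 differences were mostly small and positive, with a median of 0.21 against 0.01 over all genes. Of the 70, 58 (82.9%) were above 0, against 51.4% of all genes. Among the largest were Ndufs1 (0.69 ± 0.51) and Ndufa5 (0.66 ± 0.49), and the 3 lowest were Ndufb3 (-0.27 ± 0.35), Ndufa4 (-0.23 ± 0.32) and Ndufv1 (-0.14 ± 0.38). Complexes III and V had medians of 0.39 and 0.38, and complex I 0.12.

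At 4C the inhibitor gave 0 called genes of 70 in edgeR and in DESeq2, as over all genes (0.0%), with 5 at p under 0.05 before adjustment (5.07% of all genes). The median was -0.11, and -0.06 over all genes. The comparisons at 37C and 4C each share libraries with the temperature comparisons, so their values are not independent of those above.

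**Figure D5:**
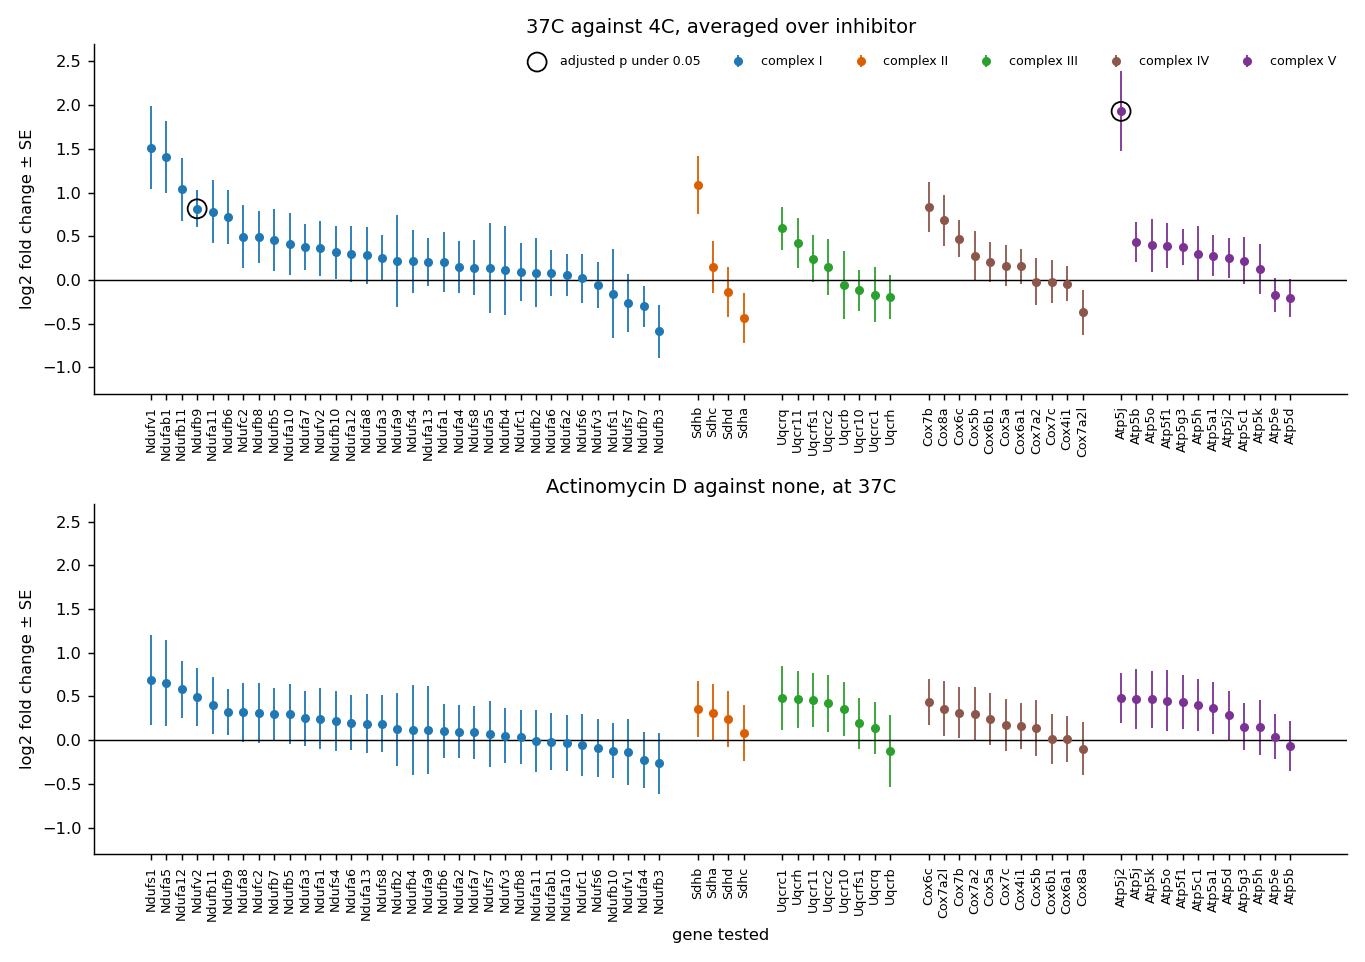
Log2 fold change with its standard error for the genes tested and reported, ordered within each complex, for 37C against 4C averaged over inhibitor (top) and for actinomycin D against none at 37C (bottom). Rings mark the 2 genes with an adjusted p under 0.05, Ndufb9 and Atp5j; no gene is ringed in the lower panel.

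The same comparisons within 1 cell type leave out shifts in the mix of types. Within tumour cells, 66 of the 72 genes and 1756 genes in all were tested. Ndufb9 passed for temperature, as 1 of 66, while 1.42% of all genes were called (0.911% higher and 0.513% lower), and DESeq2 called 0 of 66. Its tumour cell level was 1442 and 1602 CPM at 37C without inhibitor and 1728 and 1733 CPM with it, against 964 and 1146 CPM at 4C without inhibitor and 735 and 977 CPM with it. The 2 temperatures did not overlap. Tumour epithelial markers within these sums were at 1425 to 1923 CPM at 37C and 865 to 1604 CPM at 4C; their part in the result was not tested. The log2 difference was 0.76 ± 0.19 (adjusted p 0.0267 in edgeR).

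In tumour cells the call on Ndufb9 fell without A or B at 37C with inhibitor (0.78 and 0.79), B at 37C without inhibitor (0.72) or A at 4C with inhibitor (0.79), with adjusted p of 0.0532 to 0.0692 in edgeR. Atp5j had a difference of 1.99 ± 0.61 there (adjusted p 0.0765 in edgeR). The group's median in tumour cells was 0.20 against 0.02 over all genes, and 10 of 66 had an unadjusted p under 0.05 against 13.1%. T cell markers in the tumour cell sums were 6.66 to 11.4 CPM per library at 37C and 42.5 to 201 CPM at 4C; their part in the result was not tested.

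The inhibitor at 37C gave 0 called genes of 66 within tumour cells in edgeR and 0 in DESeq2, with 0 at p under 0.05 before adjustment (6.09% of all genes), where 0.911% were called (0.0569% higher and 0.854% lower). The median was 0.14, and -0.01 over all genes. In T cells only 6 of the 72 genes had enough counts to test, and 0 were called for temperature in edgeR and in DESeq2, against 9.57% of 230 genes (6.96% higher and 2.61% lower). Of the 6, Cox4i1 differed by -0.61 ± 0.28, the 1 with an unadjusted p under 0.05, against 23.9% of the 230 (adjusted p 0.194 in edgeR), and Atp5g3 by 0.84 ± 0.45. The median of the 6 was -0.15, against 0.04 over the 230 genes, and 2 of the 6 were above 0, against 52.2% of the 230.

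Other gene groups of energy and protein supply gave the following values for temperature, averaged over inhibitor. None of 4 mitochondrially encoded genes, 12 assembly factors, 11 carriers and partners, 13 citric acid cycle genes, 41 genes of the mitochondrial ribosome or 31 proteasome genes passed edgeR's test. At an unadjusted p under 0.05 they had 0, 1, 2, 2, 6 and 4 genes, where all genes had 16.4%. Their median log2 differences were 0.77, 0.06, 0.13, 0.44, 0.29 and 0.41, against 0.21 for the nuclear chain genes. Among 79 cytosolic ribosomal protein genes 3 were higher at 37C, among them Rps27a (0.83 ± 0.22), and among 11 glycolysis genes Tpi1, triose phosphate isomerase, was higher (0.91 ± 0.26), where 2.74% of all genes were called higher. Before adjustment 20 of the 79 ribosomal and 3 of the 11 glycolysis genes had p under 0.05. No regulator of mitochondrial biogenesis among the 4 tested passed (0 at an unadjusted p under 0.05).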

How the data were processed

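Per the labels, the ddSEQ system and its SureCell kit gave 3′ libraries. The deposited library tables hold raw counts (UMIs per gene and barcode). Values in the deposited table of 654 cells are on a natural log scale, from counts per 10000 with 1 added, and the deposited annotation names the library and type of each cell. The submitters' processing notes name GRCm38, Seurat, SAMtools, UMI-tools, featureCounts 1.6.0 and STAR 2.7.1a. Settings, cell and gene filters and doublet handling: not given in the sources used here.

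For each library the counts of its annotated cells were added up (23212 to 199929 UMIs), or over those of 1 type where all libraries had at least 10 cells. Genes were filtered with filterByExpr, scaled by TMM and tested two-sided in 4 groups of 2 by glmQLFit and glmQLFTest (edgeR 4.0.16, R 4.3.3). Benjamini-Hochberg adjustment ran over all genes tested, with a threshold of 0.05. CPM per library is per 1000000 annotated UMIs with TMM scaling; CPM per type is pooled and not scaled. DESeq2 1.42.0 and limma 3.58.1 served as alternatives, and Python 3.11.15 with SciPy 1.17.1, pandas 2.3.3 and NumPy 2.4.6 made the descriptions. Gene positions and overlaps came from GENCODE on GRCm38, and 48 of 72 identifier versions were in it. The fit was tested on simulated data. The genes and lists were chosen with earlier results of these data known.

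Named were genes with a call in any comparison, the 4 most abundant of complexes I, III, IV and V, the 4 Sdh genes, tissue forms, the 3 largest and 3 lowest differences for temperature and for inhibitor at 37C, and the 3 highest and 3 lowest tumour ratios; genes of the motif and overlap counts and the mitochondrial genes were named after their values were seen. Some genes that this rule selects are not reported here.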

Additional observations from a re-analysis of the deposited data

Results flagged for a closer look

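Among 156 sets of 4 libraries at 1 temperature (each gene, all genes and each complex), 8 had 1 library far from the other 3, with a gap past Dixon's critical share of the range. Chance flags about 1 set in 20, and 8 of 156 is 5.13%. All 8 were single genes. At 4C the lowest were Ndufc2 at 43.8 CPM and Uqcrb at 18.3 CPM, and Ndufa11 at 0 CPM in the library with the fewest UMIs. The highest at 4C were Ndufa5 at 201 CPM, Uqcrh at 788 CPM, Atp5o at 580 CPM and Cox6a2 at 131 CPM, the last with 0 CPM in the other 3 libraries. At 37C Ndufb10 was highest at 221 CPM against 190 to 195 CPM.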

How the results depend on the processing

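Among alternatives to the counts and levels reported, 106 kept them within the limits set and 32 moved them. Percentages in brackets are the share of all genes called in the same fit. They are not given for fits with 1 library left out or with a replicate block, so those counts have no background beside them. Called genes for temperature averaged over inhibitor were 2, and became 0 with DESeq2's Wald test (1.77%), 7 of 72 with no filter on low counts (2.02%), 0 with aliquots summed to 4 suspensions (1.89%), 25 of 72 with all barcodes (17.2%), 0 of 25 when thinned to the smallest library (7.86%), 0 with the same cell type makeup in limma (0.0295%), and 0 to 4 when 1 library was left out. With inhibitor they were 2, and became 1 with the Wald test (0.973%), 18 of 72 with all barcodes, 1 of them lower (10.6%), 0 when thinned (5.0%), 0 with the same makeup (0.0295%), and 0 to 3 when 1 library was left out. With all barcodes they were 2 without inhibitor (4.64%) and 1, lower, for inhibitor at 37C (3.41%), in place of 0. In tumour cells the 1 call became 0 with the Wald test (0.285%), 8 of 72 with no filter (0.935%), and 0 to 4 when 1 library was left out. With no filter the median over all genes was 0.53 in all cells and 0.79 in tumour cells. With a replicate block for the letters A and B the calls were 3 for temperature and 2 with inhibitor. Deviations of library A from its group mean correlated between groups at -0.03 to 0.24, highest between the 2 groups at 37C. Whether the letters pair libraries was not tested beyond these values. The difference in share between 37C and 4C was 0.254 percentage points, and 0.511 with all barcodes. The complex I share in tumour cells was 0.800% without Ndufb9, chosen after seeing the data, in place of 0.952%. The macrophage share fell from 2.20% to 2.02% when cells were thinned to 200 UMIs. For Ndufb9 and Atp5j, 45 alternatives kept the call, 26 lost it and 0 turned its sign; Atp5j was not tested after thinning.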
